A study of Mus musculus with 12 samples.

Results

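The MCM helicase genes and a small set of proliferation genes were followed in brown and white fat of mice that carry 0, 1 or 2 copies of a Ucp1-CreEvdr transgene. The 10 genes were chosen by name from a table of 24541 rows, with earlier results of these data known. The shares of all genes set beside their counts are therefore descriptive and no test of the set. They are the 6 subunits of the replicative helicase (Mcm2, Mcm3, Mcm4, Mcm5, Mcm6 and Mcm7), the sliding clamp gene Pcna, the chromosomal protein gene Mki67, the topoisomerase gene Top2a and the mitotic cyclin gene Ccnb1. RNA-seq libraries came from interscapular brown adipose tissue and inguinal white adipose tissue of wild-type, 1xUcp1-CreEvdr and 2xUcp1-CreEvdr mice, with 2 libraries in each of the 6 groups. In these mice Cre recombinase is placed under regulatory sequence of Ucp1, the uncoupling protein gene of brown fat, and the line was bred from heterozygous parents. All mice were kept at room temperature on standard chow and were killed in the morning at 6 weeks of age with no other treatment. The labels do not state whether the pair of libraries in a group comes from different animals, so each p-value measures only the spread between libraries, which may be technical. Nor do they say which brown and white libraries shared a mouse.

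A cell that prepares to copy its DNA loads the ring of MCM proteins onto replication origins, and the same ring later unwinds the double helix ahead of the polymerases. PCNA encircles the new duplex and holds the polymerase on it, topoisomerase II alpha untangles the copied strands, and cyclin B1 drives entry into mitosis with its kinase partner CDK1. Ki-67, the product of Mki67, coats mitotic chromosomes and is widely used to stain dividing cells, and in resting tissue most of these genes are held low by the RB and DREAM repressor complexes, which act through E2F sites and CHR elements.

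Promoters were taken from RefSeq annotation on GRCm38.p6, as windows from 250 bases before to 50 bases after the start, and 9 of the 10 genes had an entry. The 4 windows below are shown as examples, 2 helicase genes with E2F strings and 2 genes of mitosis with CHR strings, and this split does not hold for the whole set. Capitals mark each match to an E2F string (TTTCGCGC, TTTGGCGC, TTTCCCGC or TTTGCCGC), a CHR string (TTTGAA) or a CCAAT string (CCAAT), on either strand, and matches may overlap. Each sequence is written 5′ to 3′ on the strand of its gene. Mcm5 lies at chr8:75109259-75109558 on the plus strand, Mcm6 at chr1:128359656-128359955 on the minus strand, Mki67 at chr7:135716330-135716629 on the minus strand, and Top2a at chr11:99024140-99024439 on the minus strand.
Mcm5: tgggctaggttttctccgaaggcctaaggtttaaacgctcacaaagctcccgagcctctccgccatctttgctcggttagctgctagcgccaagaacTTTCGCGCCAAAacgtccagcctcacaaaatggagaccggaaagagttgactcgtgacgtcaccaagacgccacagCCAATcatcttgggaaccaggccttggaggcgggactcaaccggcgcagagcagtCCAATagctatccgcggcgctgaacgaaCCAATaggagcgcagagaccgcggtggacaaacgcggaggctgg
Mcm6: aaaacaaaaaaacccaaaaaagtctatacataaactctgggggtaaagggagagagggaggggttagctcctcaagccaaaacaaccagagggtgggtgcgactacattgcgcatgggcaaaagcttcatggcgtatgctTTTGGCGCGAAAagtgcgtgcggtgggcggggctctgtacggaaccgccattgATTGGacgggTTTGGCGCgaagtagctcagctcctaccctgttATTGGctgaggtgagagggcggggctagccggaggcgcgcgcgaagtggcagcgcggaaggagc
Mki67: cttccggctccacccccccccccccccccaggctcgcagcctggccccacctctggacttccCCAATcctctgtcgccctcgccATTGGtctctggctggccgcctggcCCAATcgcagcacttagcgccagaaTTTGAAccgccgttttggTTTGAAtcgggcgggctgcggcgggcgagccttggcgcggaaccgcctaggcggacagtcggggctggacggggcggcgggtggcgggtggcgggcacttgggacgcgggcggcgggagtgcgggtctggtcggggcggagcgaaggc
Top2a: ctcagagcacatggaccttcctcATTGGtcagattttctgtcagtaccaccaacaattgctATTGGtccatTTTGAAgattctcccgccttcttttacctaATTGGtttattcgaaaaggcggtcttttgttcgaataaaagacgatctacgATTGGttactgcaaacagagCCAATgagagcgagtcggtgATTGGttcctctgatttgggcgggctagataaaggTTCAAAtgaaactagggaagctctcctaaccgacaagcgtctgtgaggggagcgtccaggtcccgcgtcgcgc
In the Mcm5 window 2 overlapping E2F matches lay upstream of the start, the first of them beginning at position -153 counted from it. The Mcm6 window held 3 E2F matches, at positions -110, -106 and -47. An E2F string was found in 4 of the 9 genes (Mcm3, Mcm5, Mcm6 and Mcm7), against 2.6% of all 26994 genes with a window in the table. The CHR string was found in 3 genes, Mcm2, Mki67 and Top2a, against 20.2% of all genes. The helicase gene Mcm2 thus held a CHR string and no E2F string, and Ccnb1 and Pcna held neither. The CCAAT string was found in 9 of 9 genes, against 41.0% of all genes, and the Top2a window held 6 matches to it. A match is a description of the letters, and binding was not measured.

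The libraries held between 15679884 and 31814056 counts. The Cre row of the table was at 0 in all 4 wild-type libraries and read 606, 444, 3243 and 1770 in the 4 transgenic brown libraries. In the transgenic white libraries it read 83 in 1 copy replicate 1 and 0 in the other 3, so it could not check those 3 labels. The adipocyte markers, 10 genes such as Adipoq, summed to between 21927 and 25775 CPM (counts scaled to library size) in brown libraries and between 18819 and 21194 CPM in wild-type white libraries. In white fat they summed to 9467 to 10831 CPM with 1 copy and 4097 to 5674 CPM with 2 copies. B cell markers, also 10 genes, summed to 3.51 to 4.23 CPM in wild-type white libraries and to 1459 to 1626 CPM in the transgenic ones. T cell markers, 12 genes, summed to 11.1 to 14.9 CPM and to 1539 to 2065 CPM in the same libraries. Skeletal muscle markers, 15 genes, stood apart at 2349 CPM in white 1 copy replicate 1, against 26.7 CPM in its partner. In bulk tissue a higher level of a gene can come from more cells of a type or from more RNA per cell, and these cannot be told apart.

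In wild-type mice most of the proliferation genes were higher in white than in brown fat, by very different amounts. Levels below are CPM scaled over all 12 libraries. Top2a, which untangles sister DNA before mitosis, stood at 2.14 and 1.62 CPM in the brown libraries and at 38.3 and 24.1 CPM in the white ones. That was a 16.9-fold lower level in brown fat (log2 fold change -4.08 ± 0.25 SE, adjusted p = 1.04e-06, edgeR quasi-likelihood test with Benjamini-Hochberg adjustment over all genes). Mki67 read 3.04 and 2.91 CPM in brown against 41.8 and 29.6 CPM in white (log2 fold change -3.59 ± 0.21). Ccnb1 read 0.97 and 0.38 CPM against 6.58 and 4.55 CPM, 8.91-fold lower in brown, but on only 14 and 10 reads in the brown libraries. For each of these 3 genes both white libraries lay above both brown libraries.

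The helicase subunits had smaller estimates between the wild-type depots than those 3 genes. Mcm6 was 5.56-fold lower in brown fat (log2 fold change -2.47 ± 0.17), with 7.61 and 5.06 CPM against 36.3 and 32.6 CPM. Mcm5 was 3.47-fold lower, Mcm2 3.34-fold, Mcm3 3.01-fold and Mcm4 2.40-fold. Mcm7 had the smallest estimate of the 6 at 1.75-fold lower, with 21.5 and 17.7 CPM in brown and 37.5 and 31.0 CPM in white. Pcna, whose clamp also serves DNA repair, was at 39.4 and 44.8 CPM in brown and 51.5 and 40.3 CPM in white, so the depots overlapped (log2 fold change -0.12 ± 0.12, adjusted p = 0.408). In all, 9 of the 10 genes passed the threshold as lower in brown fat, where 32.1% of the 15559 genes tested did so. The median log2 fold change was -1.77 over the 10 genes and -0.04 over all genes.

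Lists of related genes were counted in the same comparison, in which 32.1% of all genes were lower and 29% higher in brown fat. Of 45 genes of G2 and mitosis, 44 were lower in wild-type brown than in white fat, with a median log2 fold change of -3.07. Among them were Cdk1, the kinase partner of cyclin B1, at 0.620 ± 0.19 against 12.6 ± 4.5 CPM (mean ± SD, n = 2), and Cdca8, a subunit of the chromosomal passenger complex, at 0.579 ± 0.036 against 5.81 ± 1.2 CPM. Of 25 origin licensing and helicase partner genes, 14 were lower and 3 higher, with a median of -0.64, and of 35 DNA synthesis and fork genes 18 were lower and 4 higher, with a median of -0.54. Lig1, the ligase that joins Okazaki fragments, was lower in brown fat at 4.94 ± 0.15 against 17.7 ± 3.4 CPM, while Paics, a purine synthesis enzyme, was higher at 214 ± 11 against 112 ± 6.9 CPM. Of 24 genes of G1/S control, 11 were lower and 7 higher, the latter near the share of all genes. Ccnd1, the growth-factor-responsive cyclin D1, was among the lower ones at 14.0 ± 0.46 against 129 ± 3.1 CPM.

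Markers of other cell types also differed between the wild-type depots. Macrophage markers summed to 161 to 229 CPM in brown and 822 to 1577 CPM in white libraries, and all 10 were lower in brown fat. Adipocyte progenitor markers summed to 224 to 277 CPM in brown and 1361 to 1490 CPM in white, and mammary epithelial markers to 76.2 to 106 CPM in brown and 1198 to 1313 CPM in white. Skeletal muscle markers went the other way, at 1511 and 3783 CPM in brown and 11.1 to 12.8 CPM in white libraries, with 11 of 15 higher in brown fat. The part of these markers in the depot difference was not tested. B cell markers were near 0 in both wild-type depots, at 4.57 to 6.42 CPM in brown and 3.51 to 4.23 CPM in white, and T cell markers were at 4.15 to 6.91 and 11.1 to 14.9 CPM.

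**Figure D1:**
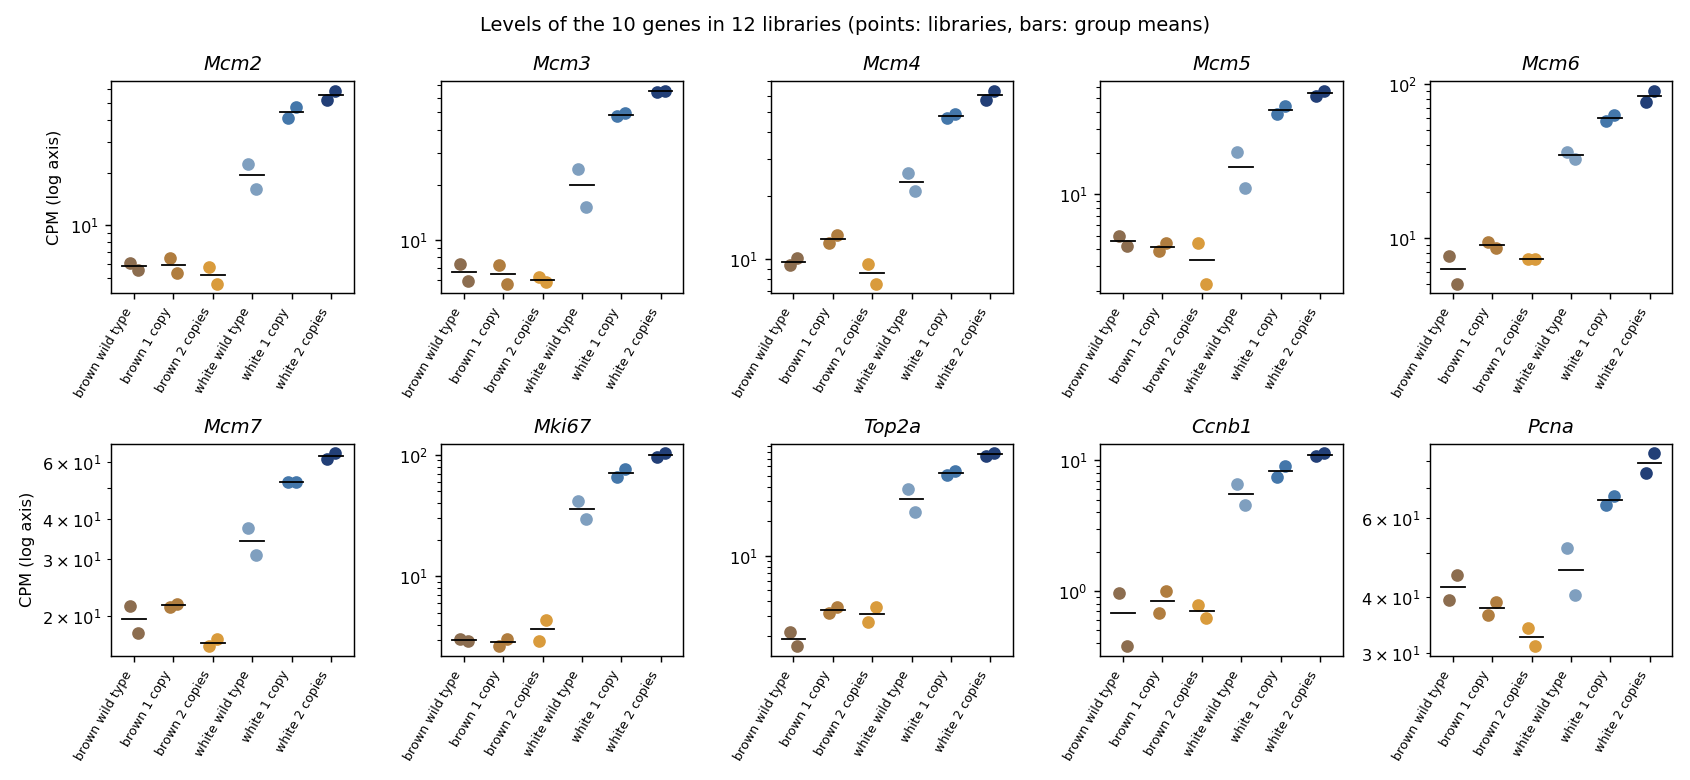
Level of each of the 10 genes in CPM (log axis) in the 12 libraries, with 1 panel per gene, 1 point per library and a bar at each group mean of 2 libraries. In every panel the transgenic white libraries lie above the wild-type white libraries, which lie above all brown libraries except for Pcna.

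In white fat the proliferation genes were higher in transgenic than in wild-type mice. Among the helicase subunits, Mcm2, which sits at the gate through which the ring opens, was at 22.4 and 16.1 CPM in wild type, at 41.1 and 47.7 CPM with 1 copy and at 52.3 and 58.9 CPM with 2 copies. Its log2 fold change was 1.20 ± 0.18 with 1 copy (adjusted p = 0.00292) and 1.53 ± 0.18 with 2 copies (adjusted p = 0.000752, edgeR quasi-likelihood test, as for every adjusted p given here). Both transgenic groups lay wholly above the wild-type libraries.

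Mcm5, the partner of Mcm2 at the gate, had the largest estimates of the 10 genes. It read 20.5 and 11.1 CPM in wild type, 38.2 and 44.0 CPM with 1 copy and 51.9 and 56.7 CPM with 2 copies. The fold was 2.60 with 1 copy (log2 1.38 ± 0.29, adjusted p = 0.0117) and 3.44 with 2 copies (log2 1.78 ± 0.29, adjusted p = 0.0036). The 1 copy call was lost without white 1 copy replicate 2 (adjusted p = 0.0551). Mcm3 went from 24.4 and 15.2 CPM to 47.3 and 49.5 CPM and then to 64.3 and 65.4 CPM, with log2 fold changes of 1.29 ± 0.22 and 1.71 ± 0.22. Mcm4, a subunit of the catalytic core, went from 25.6 and 21.1 CPM to 46.7 and 49.1 CPM and to 57.0 and 63.3 CPM, with log2 fold changes of 1.03 ± 0.12 and 1.37 ± 0.12.

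The other core subunits had smaller estimates. Mcm6 was at 36.3 and 32.6 CPM in wild type, 57.1 and 63.3 CPM with 1 copy and 76.4 and 90.4 CPM with 2 copies (log2 fold changes 0.80 ± 0.12 and 1.28 ± 0.12). Mcm7 was at 37.5 and 31.0 CPM, then 52.1 and 52.1 CPM, then 61.3 and 63.9 CPM, with log2 fold changes of 0.60 ± 0.11 and 0.87 ± 0.11. Each of the 6 subunits passed the threshold as higher in both comparisons with wild type, where 28.4% of all genes tested did with 1 copy and 32.1% with 2 copies. The transgenic libraries lay above the wild-type ones for each of the 10 genes, as they did for 40.6% of all genes with 1 copy and 41.9% with 2 copies.

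Pcna, the clamp, had the smallest estimate of the genes that passed with 1 copy. Its libraries read 51.5 and 40.3 CPM in wild type, 64.2 and 67.1 CPM with 1 copy and 75.5 and 83.4 CPM with 2 copies. The log2 fold changes were 0.51 ± 0.13 (adjusted p = 0.0182) and 0.79 ± 0.13 (adjusted p = 0.00265). Without white 1 copy replicate 1 or replicate 2 the 1 copy call was lost, at adjusted p = 0.0655 and 0.0911.

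Among the genes of mitosis, Mki67 read 41.8 and 29.6 CPM in wild type, 66.1 and 76.7 CPM with 1 copy and 96.2 and 103 CPM with 2 copies. Its log2 fold changes were 1.00 ± 0.18 (adjusted p = 0.00605) and 1.48 ± 0.18 (adjusted p = 0.000949). Top2a read 38.3 and 24.1 CPM, then 50.6 and 54.9 CPM, then 74.7 and 78.0 CPM. It passed with 1 copy at a log2 fold change of 0.76 ± 0.22 (adjusted p = 0.0323) and with 2 copies at 1.29 ± 0.22 (adjusted p = 0.00402). The 1 copy call of Top2a did not survive the loss of any single transgenic white library (adjusted p from 0.0607 to 0.125). Ccnb1 read 6.58 and 4.55 CPM in wild type, 7.43 and 9.06 CPM with 1 copy and 10.8 and 11.3 CPM with 2 copies. It missed the threshold for 1 copy (log2 fold change 0.56 ± 0.22, adjusted p = 0.0728) and passed with 2 copies (0.99 ± 0.22, adjusted p = 0.00878).

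In counts, 9 of the 10 genes were higher with 1 copy, where 28.4% of the 15287 genes tested in white fat were higher, 23.6% lower and 52% passed in either direction. With 2 copies 10 of 10 were higher, where 32.1% of all genes were higher, 28.9% lower and 61% passed in either direction. The median log2 fold change of the 10 genes was 0.90 with 1 copy and 1.33 with 2 copies, against 0.01 over all genes in each comparison. Fewer of the 10 passed with 1 copy when either white 1 copy library was left out, the library with the muscle markers or its partner. With the level of B and T cell markers as a covariate 0 of 10 passed in either comparison, with standard errors of 4.77 to 11.98 on the log2 scale. The summed marker levels of the wild-type and the transgenic white libraries do not overlap, so lymphocyte markers and genotype cannot be told apart in that fit.

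**Figure D2:**
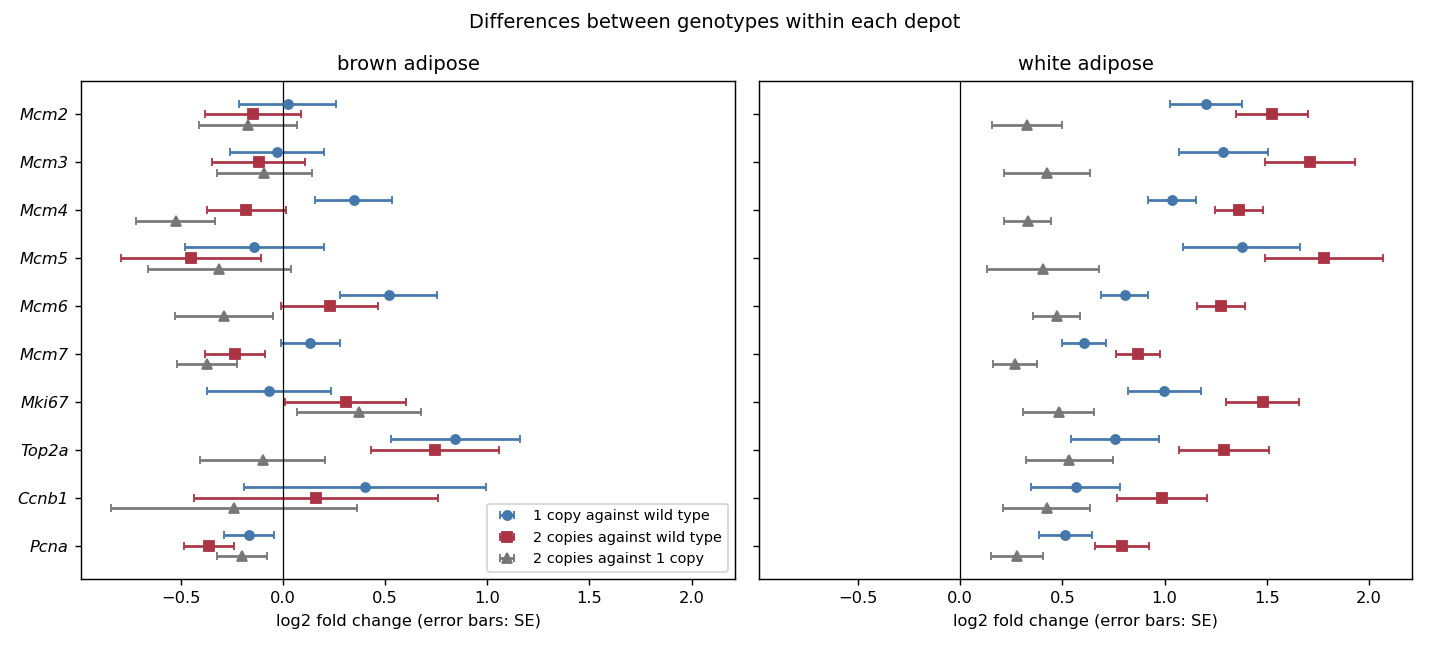
Log2 fold change of each of the 10 genes between genotypes, with brown adipose tissue on the left and white on the right; points are estimates from the edgeR fit of each depot and bars are 1 standard error. In white fat all estimates lie to the right of 0, while in brown fat they lie from -0.52 to 0.85 on both sides of it.

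Between 2 copies and 1 copy in white fat the 10 genes had log2 fold changes from 0.27 for Mcm7 to 0.53 for Top2a, and 0 of 10 passed, where 1.86% of all genes did. Both 2 copy libraries lay above both 1 copy libraries for each of the 10 genes, as they did for 26.9% of all genes tested, most of which did not pass either. A DESeq2 Wald test called 1 of the 10, Mcm6 (adjusted p = 0.0212), and 1230 of all genes. Mcm6 had the smallest adjusted p in the edgeR fit, 0.0987, at a log2 fold change of 0.47 and a 95% interval of 0.20 to 0.75. For Mcm5 the interval ran from -0.29 to 1.09 and for Pcna from -0.04 to 0.59, and both intervals include 0. Mcm3 and Top2a passed when either wild-type white library was left out (adjusted p from 0.0313 to 0.0429). Adipocyte markers moved the other way between these groups, as given above. T cell markers moved the same way, at 1539 to 1618 CPM with 1 copy and 1851 to 2065 CPM with 2 copies. All 12 of them had estimates above 0, and 0 passed. B cell markers overlapped, at 1520 to 1626 CPM with 1 copy and 1459 to 1565 CPM with 2 copies. The part of these markers in the difference was not tested.

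The related lists were counted in white fat against those shares, 28.4% of all genes higher with 1 copy and 32.1% with 2 copies. Of 35 DNA synthesis and fork genes, 22 were higher with 1 copy and 27 with 2 copies, and none was lower. Rpa1, the large subunit of the single-strand binding protein, went from 48.3 ± 1.0 to 91.5 ± 0.22 CPM with 1 copy and 101 ± 7.1 CPM with 2 copies (mean ± SD, n = 2). Pold1, the catalytic subunit of polymerase delta, went from 15.9 ± 2.6 to 46.7 ± 7.0 CPM with 1 copy. With 2 copies Dut, which clears dUTP from the nucleotide pool, reached 31.3 ± 0.057 CPM from 13.4 ± 0.47 CPM in wild type, and Dnmt1, the maintenance DNA methyltransferase, reached 133 ± 12 CPM from 55.1 ± 6.9 CPM.

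Of 25 origin licensing and helicase partner genes, 12 were higher with 1 copy and 15 with 2 copies, and none was lower. Cdt1, which brings the MCM ring to the origin, went from 5.89 ± 2.2 to 24.9 ± 1.5 CPM with 1 copy and 29.9 ± 0.66 CPM with 2 copies (log2 fold changes 2.08 ± 0.25 and 2.34 ± 0.25). Mcmbp, the MCM-binding protein, rose by 0.57 ± 0.10 on the log2 scale with 1 copy. Gins3, a subunit of the GINS complex that joins the active helicase, was at 9.54 ± 0.68 CPM with 2 copies against 3.31 ± 0.46 CPM in wild type. Of 24 genes of G1/S control, 9 were higher with 1 copy and 11 with 2 copies, and 2 were lower with 2 copies, so both counts of higher genes lay within 4 genes of the shares of all genes. E2f2, an activator E2F, rose from 10.4 ± 0.038 to 34.8 ± 1.8 and 38.5 ± 3.7 CPM.

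In the list of G2 and mitosis 12 of 45 genes were higher with 1 copy and 2 lower, with a median log2 fold change of 0.37, and this count lies near the 28.4% of all genes that were higher. In the same list with 2 copies 29 were higher and none lower, with a median of 0.86. Between the copy numbers 0 of the 45 passed by edgeR, at a median of 0.49. Smc4, a core subunit of condensin, rose from 39.6 ± 2.0 to 160 ± 10 CPM with 1 copy and 194 ± 17 CPM with 2 copies. Anln, which scaffolds the cytokinetic ring, fell from 17.3 ± 2.1 to 8.96 ± 1.5 CPM with 1 copy. Of 18 genes of cell cycle inhibition and quiescence, 6 were higher and 6 lower with 1 copy, and 8 and 6 with 2 copies, each within 3 genes of the shares of all genes. Trp53 rose from 46.6 ± 0.94 to 104 ± 1.7 and 116 ± 1.5 CPM, while Cdkn2c, an inhibitor of CDK4 and CDK6, was at 140.7 ± 3.6 CPM in wild type, 95.2 ± 4.3 CPM with 1 copy and 49.2 ± 0.45 CPM with 2 copies. Cdkn2c was the 1 gene of these 5 lists that passed between 2 copies and 1 copy (log2 fold change -0.95 ± 0.08, adjusted p = 0.0197), a call lost without any 1 of the 4 transgenic white libraries (adjusted p from 0.0823 to 0.193).

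**Figure D3:**
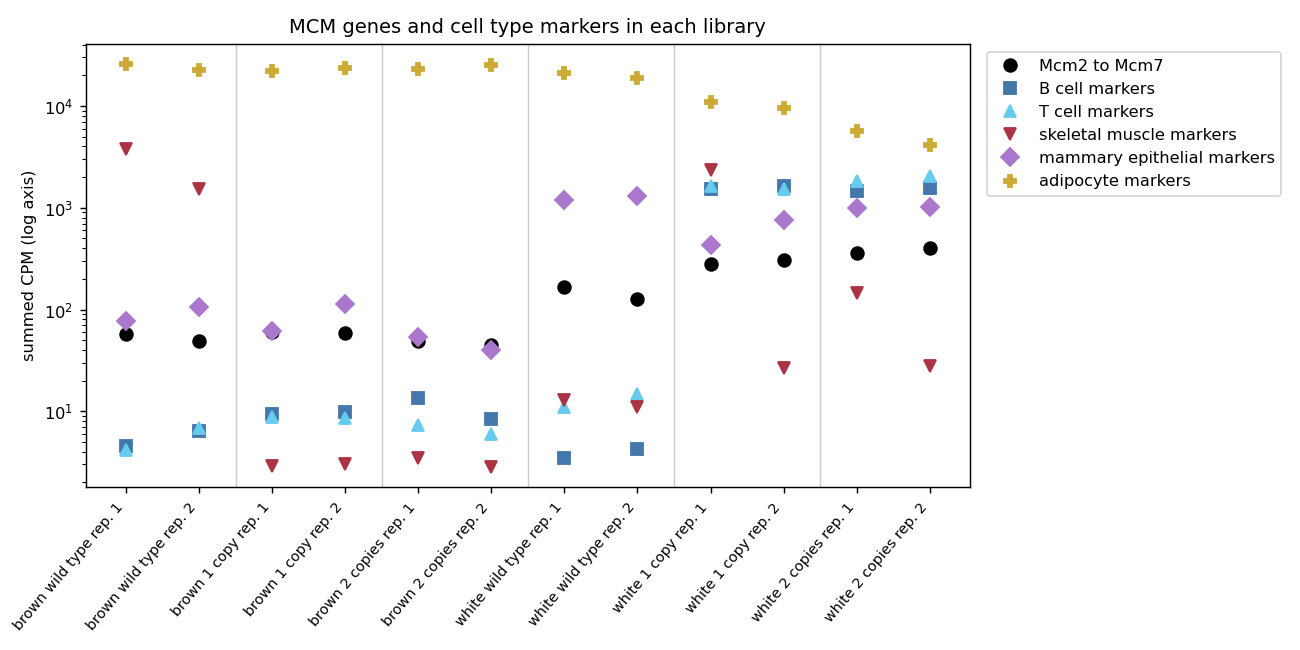
Summed CPM (log axis) of Mcm2 to Mcm7 and of 5 marker lists in each of the 12 libraries, with 1 point per library and list and grey lines between groups. The MCM sum is 127 to 167 in wild-type white libraries and 283 to 399 in transgenic ones, while the B cell and T cell sums go from at most 14.9 to at least 1459, and the adipocyte sum is lower in each transgenic white library.

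In brown fat none of the 10 genes passed in any genotype comparison. With 1 copy against wild type 0 of 10 were called, where 4.07% of the 13414 genes tested were called, with 2 copies 0 of 10, where 1.29% were, and between the copy numbers 0 of 10, where 1.95% were. DESeq2 also called 0 in each. By edgeR the smallest adjusted p of the 10 was 0.180 with 1 copy (Top2a), 0.182 with 2 copies (Pcna) and 0.174 between the copy numbers (Mcm4). The groups did not overlap for 4 of the 10 genes with 1 copy, against 54.1% of all genes tested, for 3 with 2 copies, against 47.7%, and for 4 between the copy numbers, against 58%, so non-overlap was no more common among the 10 than among all genes.

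Top2a had the largest estimate in brown fat, on 31 to 57 reads per library. It read 2.14 and 1.62 CPM in wild type, 3.18 and 3.54 CPM with 1 copy and 2.64 and 3.56 CPM with 2 copies, so that all 4 transgenic libraries lay above both wild-type ones. Its log2 fold changes were 0.85 ± 0.31 (adjusted p = 0.180) and 0.75 ± 0.31 (adjusted p = 0.262). Mki67, the other high mitotic gene of white fat, read 3.04 and 2.91, 2.65 and 3.05, and 2.93 and 4.38 CPM in the same order of groups, which overlapped. Ccnb1 had 9 to 14 reads in each brown library, and its 95% interval for 1 copy against wild type ran from -0.97 to 1.77 on the log2 scale, so a difference of the size seen in white fat was not detectable at this depth.

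The intervals of the helicase subunits in brown fat differed in width. Mcm2 read 6.09 and 5.51 CPM in wild type, 6.50 and 5.32 CPM with 1 copy and 5.78 and 4.63 CPM with 2 copies. The interval of its log2 fold change ran from -0.52 to 0.57 with 1 copy and from -0.69 to 0.40 with 2 copies, below its white fat estimates of 1.20 and 1.53. For Mcm6 with 1 copy the interval ran from -0.03 to 1.07 and held its white fat estimate of 0.80, while for Mcm5 it ran from -0.92 to 0.65 with 1 copy and from -1.24 to 0.34 with 2 copies. Mcm4 read 9.34 and 10.1 CPM, then 11.9 and 12.97 CPM, then 9.49 and 7.63 CPM, so its 1 copy libraries were the highest of the brown libraries. Mcm7 read 21.5 and 17.7 CPM, then 21.4 and 21.8 CPM, then 16.1 and 16.9 CPM, with both 2 copy libraries below the other 4. Pcna read 39.4 and 44.8 CPM, then 36.5 and 39.1 CPM, then 34.1 and 31.1 CPM, and its log2 fold change with 2 copies was -0.36 ± 0.12 (adjusted p = 0.182).

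Skeletal muscle markers summed to 1511 and 3783 CPM in the wild-type brown libraries and to 2.81 to 3.498 CPM in the 4 transgenic ones. These sums do not overlap, so muscle markers and genotype cannot be told apart in the brown comparisons with wild type. Among the related lists in brown fat, Cdc7, the kinase that activates the loaded helicase, was the 1 licensing gene of 22 tested that passed, at 9.54 ± 0.34 CPM with 1 copy against 3.57 ± 0.94 CPM in wild-type brown fat (log2 fold change 1.39 ± 0.29, adjusted p = 0.0427). With 2 copies it stood at 2.99 ± 0.99 CPM, lower than with 1 copy (adjusted p = 0.0454). The first call was lost without brown wild-type replicate 1 or either 1 copy library (adjusted p up to 0.257), and the second without any 1 of the 4 transgenic brown libraries (adjusted p up to 0.273). Of 17 inhibitor genes tested, Cdkn1b, the CDK inhibitor p27, was higher with 1 copy (0.60 ± 0.11 on the log2 scale) and Btg1 was lower (-0.87 ± 0.13), and between the copy numbers Lin52, a subunit of the DREAM complex, was lower with 2 copies (-0.85 ± 0.16). These 3 calls depended on the setting. Of 12 alternatives, Btg1 lost its call in 3, Cdkn1b lost it in 3 and changed sign in 1, and Lin52 lost it in 4. The losses of each included the fits without either 1 copy library. No gene of the DNA synthesis, G1/S or mitosis lists passed in any brown comparison, of 35, 23 and 34 tested.

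The difference of the log2 fold changes, white minus brown, was tested in 1 fit of all 12 libraries. For 1 copy against wild type 6 of the 10 genes passed as larger in white fat, where 18.8% of the 15559 genes tested did, and the estimates of those 6 ran from 0.67 for Pcna to 1.505 for Mcm5. For 2 copies 8 of 10 passed, where 21.7% of all genes did, with Mcm5 at 2.24 ± 0.46 (adjusted p = 0.00386) and Mcm4 at 1.55 ± 0.20 (adjusted p = 0.000207). Top2a (0.53 ± 0.35, adjusted p = 0.262) and Ccnb1 (0.81 ± 0.57, adjusted p = 0.285) did not pass for 2 copies. For 2 copies against 1 copy Mcm4 passed (0.87 ± 0.20, adjusted p = 0.0388), where 0.9% of all genes were larger in white fat, and that call was lost without any 1 of the transgenic libraries other than brown 2 copies replicate 1 (adjusted p from 0.0720 to 0.159). With median-of-ratios scaling the median of all genes moved by -0.14 for 1 copy and by -0.12 for 2 copies, and the share of larger effects among all calls went from 57.6% to 43.9% for 1 copy. Under that scaling 5 of 10 passed for 1 copy, without Mcm4 (adjusted p = 0.0514), and 8 of 10 for 2 copies. Without brown 1 copy replicate 1 or white 1 copy replicate 2, 2 of 10 passed for 1 copy, and without brown wild-type replicate 2, 3 of 10. Markers of other cell types moved in the same comparison. Of 15 skeletal muscle markers, 14 passed as larger in white fat for 1 copy and 10 for 2 copies, and their sum was 1511 and 3783 CPM in the wild-type brown libraries against 2.81 to 3.498 CPM in the transgenic brown ones. Over all genes 5076 passed in either direction for 1 copy, 2926 of them as larger in white fat. For 2 copies 6568 passed, 3369 of them as larger. Of 10 adipocyte markers, 6 passed with a lower effect in white than in brown fat for 1 copy and 9 for 2 copies. Their part in the differences was not tested.

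In transgenic mice the depots were compared in the same way. With 1 copy 10 of 10 genes were lower in brown than in white fat, where 40.6% of all genes were, from -0.80 ± 0.13 for Pcna to -4.64 ± 0.22 for Mki67 on the log2 scale. With 2 copies 10 of 10 were lower, where 42.3% of all genes were, from -1.29 ± 0.13 for Pcna to -4.76 ± 0.22 for Mki67. The median of all genes was -0.24 in each of these comparisons, and median-of-ratios scaling moved it by 0.12 with 1 copy and 0.10 with 2 copies.

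Per kilobase of exon, the make-up of the MCM transcripts also differed between the depots. Lengths were the union of GENCODE M21 exons, and levels are CPM per kb. In wild-type brown fat Mcm7 stood at 6.63 ± 0.90, Mcm4 at 2.71 ± 0.15, Mcm3 at 2.19 ± 0.33, Mcm2 at 1.72 ± 0.12, Mcm6 at 1.45 ± 0.41 and Mcm5 at 1.33 ± 0.16 (mean ± SD, n = 2). Mcm7 stood clear of the others, while the libraries of Mcm6 overlapped those of both Mcm2 and Mcm5. In wild-type white fat Mcm7 led at 11.6 ± 1.5, followed by Mcm6 at 7.87 ± 0.59, Mcm3 at 6.53 ± 2.2 and Mcm4 at 6.51 ± 0.88. The libraries of Mcm3 overlapped those of both Mcm6 and Mcm4. With 2 copies in white fat Mcm3 (21.4 ± 0.27) and Mcm7 (21.1 ± 0.61) were level. Mcm5 had the lowest mean of the 6 at 15.7 ± 0.99, but its libraries overlapped those of Mcm2 and Mcm4. Pcna was the highest of the 10 genes and Ccnb1 or Mki67 the lowest in each group, with Pcna at 27.7 ± 2.5 and Ccnb1 at 0.270 ± 0.17 in wild-type brown fat.

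**Figure D4:**
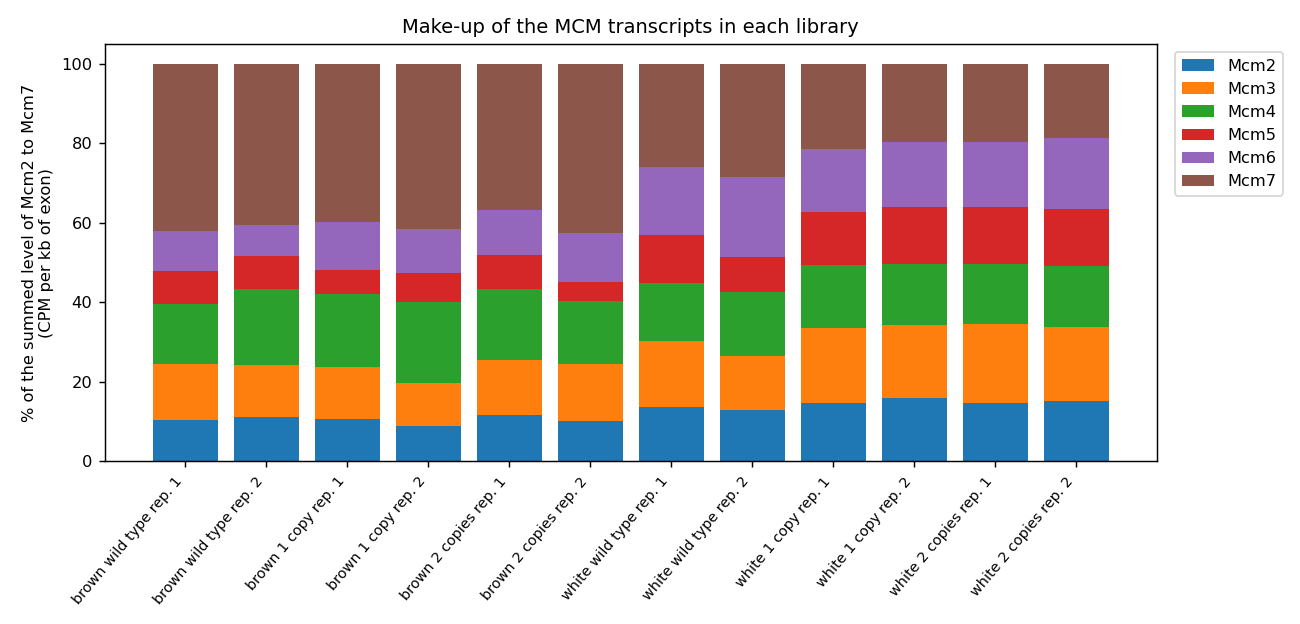
Share of each subunit in the summed level of Mcm2 to Mcm7, in percent of CPM per kb of exon, with 1 stacked bar per library. The Mcm7 share is near 40% in brown libraries and falls to near 20% in transgenic white libraries.

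Mcm7 made up 41.3% of the MCM sum in wild-type brown fat, 40.7% with 1 copy and 39.6% with 2 copies, as means of 2 libraries. In white fat its share was 27.2% without the transgene, 20.5% for 1 copy and 19.1% for 2 copies. Mcm5 went the other way, from 8.28% in wild-type brown fat to 10.4% in wild-type white fat and 14.2% in white fat with 2 copies. Its wild-type white libraries were far apart, at 12.2% and 8.72%, the latter close to the 8.64% of brown 2 copies replicate 1. The shares of a library make up a fixed whole, so a lower Mcm7 share means a higher sum of the others. Mcm6 took 8.95% in wild-type brown fat and 18.6% in wild-type white fat. The table's Mcm7 row may hold reads of its neighbours, since 321 of its exon bases (10.8%) are shared with Ap4m1 and 64 (2.16%) with Cops6, both on the opposite strand, and the strand setting of the counting is not given in the sources used here. Ap4m1 read 21.3 ± 1.6 CPM in wild-type brown fat, 22.1 ± 1.5 CPM in wild-type white fat and 15.7 ± 0.90 CPM in white fat with 2 copies. Cops6 read 125 ± 15, 85.0 ± 1.1 and 56.7 ± 2.6 CPM in the same groups, falling in the same order as the Mcm7 share. The part of either neighbour in the Mcm7 share was not tested. GENCODE also lists processed copies of Ccnb1 and Pcna (Ccnb1-ps, Pcna-ps1 and Pcna-ps2), so the values of these 2 genes are uncertain where reads were split among copies.

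Across the 12 libraries the mean log2 CPM of the 10 genes (with 0.5 CPM added) ran most closely with Lmnb1, the lamin B1 gene, among 13805 other genes with a mean of at least 1 CPM (Pearson r = 0.998 over 12 libraries). Next were Cotl1, Lig1, Tmsb10, Rpa2, H2-T23, Thy1, Dsn1, Csf2rb2 and Nipal1, with r from 0.996 to 0.998. With each depot's mean taken off, the closest were Lmnb1 (0.982), Rpa2 (0.981), Epsti1 (0.979), Fen1 (0.977) and Lig1 (0.976). Among the 100 genes closest across the 12 libraries, 8 came from the replication and cell cycle lists. These lists hold 127 of the 13805 genes ranked. With each depot's mean taken off, 7 of the 100 closest came from them. These libraries fall into 6 groups of 2 and share their scaling, so the coefficients describe the pattern of groups. Among themselves the members ran closely, with a mean r with the others from 0.917 for Pcna to 0.981 for Mcm2, and from 0.793 for Top2a to 0.898 for Mcm3 with each depot's mean taken off.

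The genes lie apart in the genome, on 9 chromosomes of GRCm38, with Mcm3 and Mcm6 both on chromosome 1. Mcm2 (ENSMUSG00000002870) is at chr6:88883474-88898780, Mcm3 (ENSMUSG00000041859) at chr1:20802968-20820312, Mcm4 (ENSMUSG00000022673) at chr16:15623897-15637400, Mcm5 (ENSMUSG00000005410) at chr8:75109569-75128439, Mcm6 (ENSMUSG00000026355) at chr1:128331590-128359664 and Mcm7 (ENSMUSG00000029730) at chr5:138164583-138172422. Mki67 (ENSMUSG00000031004) is at chr7:135689784-135716361, Top2a (ENSMUSG00000020914) at chr11:98992943-99024189, Ccnb1 (ENSMUSG00000041431) at chr13:100778650-100786570 and Pcna (ENSMUSG00000027342) at chr2:132249162-132253314. Each is protein coding, and only Mcm5 lies on the plus strand. The position of the counted reads within these genes was not analysed here.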

How the data were processed

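RNA-seq libraries (Illumina TruSeq stranded mRNA kit, per the labels' protocols) were counted by the authors as raw counts per gene in 1 deposited table of 24541 rows and 12 libraries. Per the submitters' processing notes the tools were STAR and featureCounts from Subread with the mm10 genome; their versions, the annotation and the strand setting are not given in the sources used here. Groups came from the labels' tissue and genotype. Counts were fitted with edgeR 4.0.16 (R 4.3.3, limma 3.58.1) by its robust quasi-likelihood test, with filterByExpr, TMM scaling and Benjamini-Hochberg adjustment over all genes tested, at a threshold of 0.05. Genotypes were compared in a fit of the 6 libraries of each depot (13414 and 15287 genes, 3 residual degrees of freedom), depots and differences of effects in a fit of 12 (15559 genes). All 10 members passed the filter in each. Standard errors are the log2 fold change over the square root of F, and 95% intervals use the moderated degrees of freedom. Printed CPM use scaling factors over 12 libraries (0.804 to 1.31). Within a group the 2 libraries differed by more than sampling noise, with a chi-square per degree of freedom of 8.75 to 37.7. The procedure was tested on simulated data. The members and the lists were chosen with earlier results of these data known. Named list genes are up to 3 per list and comparison ranked by adjusted p among the passing genes, and the 10 genes most like the members by Pearson r. Alternatives were median-of-ratios scaling, DESeq2 1.42.0, other filters, 1 fit for both depots, marker covariates and leaving out each library. Promoters came from RefSeq (GRCm38.p6), exon lengths from GENCODE M21 (GRCm38), both matched by symbol. Figures were drawn with Python 3.11.15 and matplotlib 3.10.9.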

Additional observations from a re-analysis of the deposited data

Results flagged for a closer look

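The genotype difference was not the same in white and brown fat for the genes named below. This was a test of the difference itself (edgeR quasi-likelihood test of the interaction over 12 libraries, adjusted over 15559 genes). Values are the log2 fold change in white fat minus that in brown fat. For 1 copy against wild type the differences were 1.17 ± 0.27 (SE) for Mcm2, 1.31 ± 0.30 for Mcm3, 0.68 ± 0.19 for Mcm4 and 1.505 ± 0.46 for Mcm5. They were 1.06 ± 0.31 for Mki67 and 0.67 ± 0.18 for Pcna, and the adjusted p of these 6 ran from 0.00878 to 0.0316. In that comparison 18.8% of all genes passed as larger in white fat. Under median-of-ratios scaling Mcm4 did not pass, and the dependence on single libraries is given above. For 2 copies against wild type they were 1.68 ± 0.27 for Mcm2, 1.83 ± 0.30 for Mcm3, 1.55 ± 0.20 for Mcm4 and 2.24 ± 0.46 for Mcm5. They were 1.04 ± 0.24 for Mcm6, 1.11 ± 0.17 for Mcm7, 1.17 ± 0.30 for Mki67 and 1.16 ± 0.18 for Pcna, with adjusted p from 0.000207 to 0.0108. Of all genes 21.7% passed as larger in white fat there, and Top2a and Ccnb1 passed in neither comparison. For 2 copies against 1 copy Mcm4 differed by 0.87 ± 0.20 (adjusted p = 0.0388), with white fat up by 0.33 and brown fat at -0.52 in the fits of each depot. Between these copy numbers 0.9% of all genes passed as larger in white fat. The summed B and T cell markers also rose with the transgene in white fat, from at most 14.9 CPM to at least 1459 CPM each. In brown fat the B cell sum was 4.57 to 6.42 CPM in wild type and 8.38 to 13.5 CPM in the transgenic libraries. The T cell sum there was 4.15 to 6.91 CPM in wild type and 6.00 to 8.77 CPM in the transgenic libraries. Of the 7 B cell and 3 T cell markers tested in brown fat, 0 passed against wild type. Of 15 skeletal muscle markers, 14 had a larger effect in white fat for 1 copy and 10 for 2 copies, and they summed to 1511 and 3783 CPM in the wild-type brown libraries against 2.81 to 3.498 CPM in the transgenic brown ones. Of 10 adipocyte markers, 6 had a lower effect in white fat for 1 copy and 9 for 2 copies. Over all genes 5076 passed in either direction for 1 copy, 2926 of them as larger in white fat, and 6568 and 3369 for 2 copies. The part of these cell type markers in the differences was not tested, and lymphocyte markers cannot be told apart from genotype in white fat.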

How the results depend on the processing

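No paired analysis was possible because the labels give library numbers only, with none shared between groups. Of the counts of members passing, those of the 3 brown comparisons (0 throughout) and of the 3 depot comparisons (9, 10 and 10) were equal under every alternative run. In white fat the count for 1 copy against wild type was 9, and 6 to 10 with 1 library left out; for 2 copies it was 10 throughout these; with the B and T cell marker covariate both were 0. For 2 copies against 1 copy it was 0, 0 to 2 with 1 library left out, and 1 by DESeq2. For the difference between depots it was 6 (2 to 7 with 1 left out) for 1 copy, 8 (8 to 9) for 2 copies, and 1 (0 to 3, and 2 by DESeq2) for 2 copies against 1 copy. Counts over all genes moved more: in brown fat with 1 copy 546 genes passed, 1044 by DESeq2 and 1004 in 1 fit of 12 libraries; with 2 copies 173, 683 by DESeq2 and 353 with no filter; between copy numbers 262, 974 by DESeq2, 796 in 1 fit, 738 with the muscle covariate and 516 with no filter. In white fat 285 passed between copy numbers, 1230 by DESeq2, 780 in 1 fit and 29 with the covariate, and for the difference between depots in that comparison 591, and 1270 by DESeq2. Covariates left 0 genes in all 4 comparisons with wild type. With 1 library left out, counts were 26 to 880, 8 to 334 and 7 to 812 in brown fat, 5113 to 7237, 6828 to 8713 and 0 to 586 in white fat, and 3476 to 5091, 5018 to 6348 and 25 to 787 for the difference.
With the muscle covariate, log2 values changed sign for Mcm3 (1.47), Mcm4 (-0.25), Mcm5 (1.20), Mki67 (0.085), Cdc7 (-1.53) and Cdkn1b (-0.061) with 1 copy in brown fat, and for Mcm2 (0.54), Mcm3 (1.37), Mcm5 (0.88) and Mcm7 (1.09) with 2 copies. With the B and T cell covariate they did so in white fat with 1 copy for Mcm6 (-0.24), Rpa1 (-0.57), Pold4 (-1.60), E2f2 (-2.23), Cdk6 (-1.97), Rbl1 (-0.55), Anln (4.28) and Btg2 (-3.17). With 2 copies they did so for Rpa1 (-0.46), E2f2 (-2.17), Cdk6 (-1.84), Rbl1 (-0.52) and Cdkn2c (0.98). Standard errors of the members in these fits against wild type were 4.77 to 11.98 in white fat and 0.759 to 3.68 in brown fat. The marker sums of wild-type and transgenic libraries do not overlap in either depot, so markers and genotype cannot be told apart there. These changes of sign therefore cannot be read as reversals. For the difference between depots with 1 copy, Ccnb1 was at -0.0078 by median-of-ratios scaling and -0.0080 by DESeq2. With 1 library left out, brown values crossed 0 with 1 copy for Mcm2 (-0.13 to 0.16), Mcm3 (-0.21 to 0.13), Mcm7 (-0.0019 to 0.25), Mki67 (-0.18 to 0.028) and Ccnb1 (-0.21 to 1.11), and with 2 copies for Mcm2 (-0.32 to 0.014), Mcm3 (-0.27 to 0.013), Mcm6 (-0.048 to 0.51), Mki67 (-0.0072 to 0.56) and Ccnb1 (-0.45 to 0.87). Between copy numbers they did for Mcm3 (-0.25 to 0.090), Mcm5 (-0.87 to 0.11), Top2a (-0.33 to 0.095) and Ccnb1 (-0.48 to 0.064), between wild-type depots for Pcna (-0.28 to 0.063), and in the difference between depots for Mcm6 (-0.021 to 0.56), Top2a (-0.41 to 0.26) and Ccnb1 (-0.57 to 0.77) with 1 copy and Mki67 (-0.14 to 0.44) between copy numbers. None of the member values that changed sign had passed except Mcm6 in white fat. Groups of 2 libraries, and in brown fat 9 to 14 reads of Ccnb1, limit what could be seen; a lone library was assumed to vary like the others.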
